A study of Mus musculus with 9 samples.

Results

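The 10 genes described here, Atf4, Atf5, Ddit3, Trib3, Sesn2, Chac1, Asns, Psat1, Phgdh and Slc7a11, belong to the ATF4 stress response and to serine synthesis. They were chosen by name, with earlier results of these data known. They are 10 of the 38293 genes of the count table, and all 10 passed the filter on low counts. RNA was sequenced from E14 mouse embryonic stem cells, a line of strain 129/Ola with no genetic change given in the labels, in 3 culture states with 3 biological replicates each. The mESC-2i cells represent the naive state and were kept in N2B27 medium with the MEK inhibitor PD0325901 at 1 µM, the GSK3 inhibitor CHIR99021 at 3 µM and leukaemia inhibitory factor (LIF) at 10 ng/mL. The mESC-ser cells grew on gelatin in DMEM with 15% foetal bovine serum, 2 mM L-glutamine, 0.05 mM β-mercaptoethanol, added non-essential amino acids and LIF at 10 ng/mL. Epiblast-like cells (EpiLC) were differentiated from mESC-2i on a fibronectin coat, in N2B27 with 20 ng/mL activin A, 12 ng/mL FGF2 and 1% KSR, with neither LIF nor the kinase inhibitors named for that medium. The labels give neither the days in each medium nor the amino acid content of N2B27, and all cells come from the same line, so no other genetic background was measured.

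ATF4 is a transcription factor whose translation rises when kinases phosphorylate the initiation factor eIF2α, as happens under amino acid shortage, unfolded protein in the endoplasmic reticulum (ER) or mitochondrial stress. It pairs with C/EBP proteins and switches on genes that make, import and recycle amino acids, and with the factors ATF5 and CHOP (encoded by Ddit3) forms the core of the integrated stress response. Because much of ATF4's control is translational, the level of Atf4 mRNA does not give the amount of ATF4 protein, which was not measured here.

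Of the 10 genes, 4 carried the core of the C/EBP-ATF response element within the RefSeq promoter window, which runs from 250 bases before to 50 bases after the annotated start. The letters searched were TGATGNAA, or TTNCATCA for the same core on the other strand. The window of every gene was found in RefSeq on GRCm38.p6, and positions below count from its start. The stretches around the matches are shown because these 4 genes behaved differently from each other between the states. Capitals mark the core.
Asns, chr6:7693214-7693243, minus strand: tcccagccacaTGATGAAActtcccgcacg
Trib3, chr2:152344028-152344057, minus strand: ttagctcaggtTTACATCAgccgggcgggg
Chac1, chr2:119350992-119351111, plus strand: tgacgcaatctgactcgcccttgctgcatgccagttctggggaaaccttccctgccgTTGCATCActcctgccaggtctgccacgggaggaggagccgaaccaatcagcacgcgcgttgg
Slc7a11, chr3:50443624-50443743, minus strand: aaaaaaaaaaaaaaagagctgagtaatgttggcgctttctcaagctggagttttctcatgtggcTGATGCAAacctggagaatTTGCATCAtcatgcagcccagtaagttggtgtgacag

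The core lay at -23 to -16 in Asns, at 15 to 22 in Trib3 and at -193 to -186 in Chac1. Slc7a11 held 2 cores, at -66 to -59 and at -47 to -40, in opposite orientations. Over all 27025 genes with a window, 1219 held a match (4.51%), as did 1304 of all 32851 windows (3.97%). The windows of Atf4, Atf5, Ddit3, Sesn2, Psat1 and Phgdh did not hold these letters. The RefSeq starts of Psat1 lie 22278 and 22715 bases inside the gene as GENCODE M21 annotates it, so its windows do not cover that annotation's first exon. A match is a description of the sequence and was not tested as a binding site.

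The libraries held 7187576 to 16829549 counts. Naive pluripotency genes summed to 3393 to 3432 CPM (counts relative to library size, scaled by TMM) in mESC-2i, 1806 to 1887 in mESC-ser and 104 to 118 in EpiLC, and the 6 formative genes, Fgf5 and Otx2 among them, to 103 to 118, 847 to 989 and 2245 to 2346. The labelled states thus had their defining markers. Pou5f1 lay between 677 and 1087 CPM in all 9 libraries, whereas Sox2 had 457 to 566 CPM in the stem cell states and 57.6 to 69.1 in EpiLC, 7.67-fold lower than in mESC-2i. Sums over marker genes of other lineages also moved with the states. Trophectoderm genes summed to 210 to 226 CPM in mESC-ser against 58.4 to 80.4 elsewhere, mostly Krt8 and Krt18 (means of 106 and 95.9 in mESC-ser). Cdx2 was instead higher in mESC-2i (15.5) than in mESC-ser (2.44). Mesoderm genes summed to 94.4 to 116 CPM in mESC-2i against 13.02 to 17.18 elsewhere, and T alone had a mean of 85.5 in mESC-2i. Neural genes summed to 35.8 to 36.5 CPM in EpiLC against 131 to 176 in the stem cell states, most of it Tubb3. Pax6 was instead highest in mESC-ser (25.2). Primitive endoderm genes summed to 7.66 to 34.8 and fibroblast genes to 41.0 to 77.9 in all libraries. The part of these lineage genes in the results below was not tested. In bulk RNA, fewer cells with a gene on and less of its RNA in each cell cannot be told apart.

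In summed counts, the 10 genes were lowest in mESC-ser. Their share of all counts was 0.101% ± 0.00614 (SD, n = 3) in mESC-ser, against 0.225% ± 0.0162 in mESC-2i and 0.156% ± 0.0029 in EpiLC. EpiLC had the highest mean level for 7 of the genes and mESC-2i for 3 (Atf5, Sesn2 and Asns), while mESC-ser had the highest mean for none. Without TMM, scaled by total counts only, Atf4 was highest in mESC-2i instead.

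**Figure D1:**
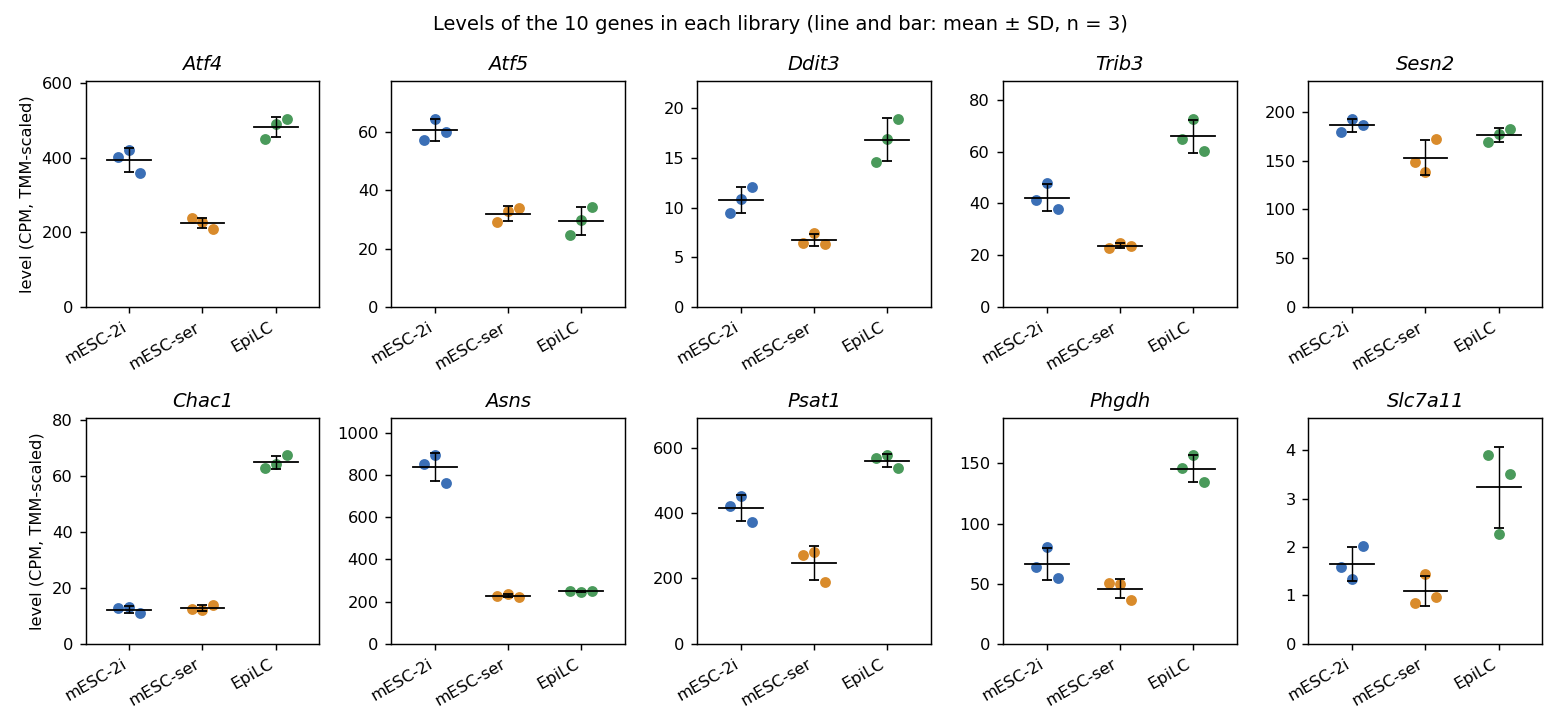
Level of each of the 10 genes in each of the 9 libraries, in CPM scaled by TMM on a linear axis from 0, with the mean and SD of the 3 libraries of a state. EpiLC libraries of Chac1 (62.8 to 67.5 CPM) stand far above both other states, mESC-2i libraries of Asns (763 to 892.5 CPM) do so for that gene, and Sesn2 is nearly level.

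The pair of stem cell states, serum against 2i, came first. In mESC-ser, 7 of the 10 genes were lower than in mESC-2i and none was higher. A gene is called here at an adjusted p under 0.05 with an absolute log2 fold change over 0.5 in edgeR's quasi-likelihood test. Over all 15728 genes tested, 56.2% were called, 30.3% lower and 25.9% higher. At this threshold, the share of these 10 genes called lower was thus above that of all genes. Their median log2 fold change was -0.78, against -0.04 over all genes. The libraries of the 2 states did not overlap for 8 of the 10 genes, against 70.7% of all genes tested. The lower calls took in all 3 factors (Atf4, Atf5, Ddit3) and all 3 biosynthetic enzymes (Asns, Psat1, Phgdh). Trib3 was also called lower, but Sesn2, Chac1 and Slc7a11 were not.

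The second comparison followed the cells from 2i into EpiLC. There 5 genes rose (Chac1, Phgdh, Slc7a11, Trib3 and Ddit3) and 2 fell (Asns and Atf5), while 69.8% of all 15378 tested genes were called, 32.0% higher and 37.8% lower. The median over the 10 genes was 0.51 and over all genes -0.11. For 9 of the 10 genes, all except Sesn2, the libraries did not overlap in TMM-scaled CPM, against 81.8% of all genes. With libraries scaled by total counts, which moved the median of all genes to -0.45 and the higher share of all calls from 45.9% to 33.7%, only Chac1 and Phgdh were called higher. The length and GC correction moved the median of all genes to 0.18 and that share to 55.8%, with 5 of the genes called higher. Among them Psat1 (0.81) had taken the place of Trib3 (0.42).

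EpiLC against mESC-ser set the formative cells beside the serum cells. Here 7 of the 10 genes were higher in EpiLC and none lower, against 73.3% of all 15345 genes called, 35.5% higher and 37.8% lower. The median over the 10 genes was 1.34, against -0.07 over all genes. Atf5, Sesn2 and Asns were not called, and 8 genes had libraries that did not overlap, against 85.7% of all genes. Under total-count scaling the median of all genes was -0.41 and 37.4% of their calls were higher in place of 48.4%, and the same 7 of the 10 genes were called higher. The 3 comparisons share libraries in pairs, so their values are set side by side below and are not independent of each other.

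**Figure D2:**
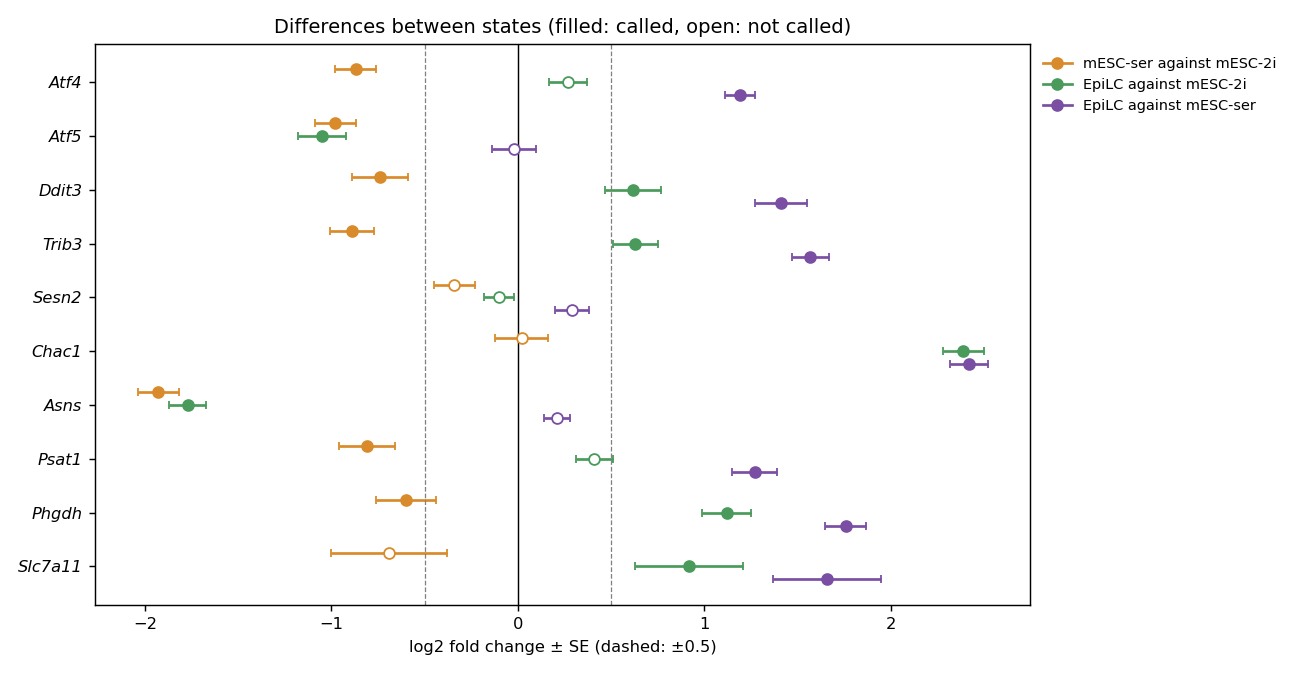
Log2 fold change with its standard error (SE) for each of the 10 genes in the 3 comparisons, with filled points for called genes. Asns and Atf5 are lower in both comparisons against mESC-2i, Chac1 is higher in both comparisons of EpiLC, and the 3 values of Sesn2 all lie inside the dashed lines at 0.5.

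Among the factors, Atf4 itself (chromosome 15, 80255184 to 80257541, plus strand, mm10, which is GRCm38) had 402, 421 and 359 CPM in mESC-2i, 237, 227 and 210.2 in mESC-ser, with 451, 492 and 505 in EpiLC. The serum libraries lay below all others and the EpiLC libraries above all others. Atf4 was 1.82-fold lower in mESC-ser than in mESC-2i (log2 fold change -0.87, SE 0.11, adjusted p = 4.42e-05) and 2.28-fold higher in EpiLC than in mESC-ser (1.19, SE 0.08, adjusted p = 7.69e-10). Between EpiLC and mESC-2i the log2 difference was 0.27 (95% interval 0.08 to 0.47), short of the fold threshold, and under total-count scaling it was -0.07. The order of these 2 states in Atf4 therefore depended on the scaling, whereas mESC-ser was the lowest state under both.

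Atf5, a close relative of ATF4 that is likewise under translational control and is known for the mitochondrial stress response, had another pattern (chromosome 7, 44812256 to 44816658, minus strand). Its libraries gave 57.5, 64.6 and 60.1 CPM in mESC-2i, 29.1, 32.8 and 34.1 in mESC-ser, with 24.6, 29.9 and 34.3 in EpiLC. The mESC-2i libraries stood apart, and those of the other states overlapped. Atf5 was 1.97-fold lower in mESC-ser (log2 -0.98, SE 0.11, adjusted p = 1.96e-05) and 2.08-fold lower in EpiLC (-1.05, SE 0.13, adjusted p = 1.97e-05) than in mESC-2i. EpiLC and mESC-ser differed by -0.02 on the log2 scale (95% interval -0.25 to 0.20), but by -0.69 once corrected for length and GC content, where the gene was called. The kit did not mark strand, and Il4i1 and Nup62 overlap Atf5 on the opposite strand, so reads of these genes cannot be told apart where they overlap.

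Ddit3 encodes CHOP, the factor that links prolonged stress to cell death (chromosome 10, 127290774 to 127296288, plus strand, overlapped by Mars and Gm4189 on the other strand). It was sparse, with 77 to 156 counts a library. The levels were 9.46, 10.8 and 12.1 CPM in mESC-2i, 6.44, 7.47 and 6.37 in mESC-ser, with 14.6, 16.9 and 19.0 in EpiLC, and no libraries of different states overlapped. Ddit3 was 1.68-fold lower in mESC-ser than in mESC-2i (log2 -0.74, SE 0.15, adjusted p = 0.00148) and 1.53-fold higher in EpiLC than in mESC-2i (0.62, SE 0.15, adjusted p = 0.00315). The second value was 0.28 and not called under total-count scaling. EpiLC exceeded mESC-ser 2.66-fold (1.41, SE 0.14, adjusted p = 6.5e-08).

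The next 3 genes, Trib3, Chac1 and Sesn2, behaved differently from each other. Trib3 (chromosome 2, 152337422 to 152344032, minus strand) encodes a pseudokinase that restrains ATF4 and CHOP. It had 41.1, 47.8 and 37.7 CPM in mESC-2i, 22.6, 24.7 and 23.7 in mESC-ser, with 64.7, 72.7 and 60.3 in EpiLC. As with Ddit3, the states did not overlap and ran from mESC-ser through mESC-2i to EpiLC. Trib3 was 1.86-fold lower in mESC-ser than in mESC-2i (log2 -0.89, SE 0.12, adjusted p = 8.13e-05) and 1.54-fold higher in EpiLC (0.63, SE 0.12, adjusted p = 0.000526). The rise from mESC-2i was 0.29 under total-count scaling and 0.42 after the length and GC correction, and was called under neither. EpiLC was 2.96-fold above mESC-ser (1.57, SE 0.10, adjusted p = 1.39e-10).

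Chac1 encodes an enzyme that degrades glutathione and is a well known product of the ATF4 and CHOP branch (chromosome 2, 119351229 to 119354381, plus strand). Its libraries gave 12.8, 13.1 and 10.9 CPM in mESC-2i, 12.5, 12.1 and 13.9 in mESC-ser, with 62.8, 64.6 and 67.5 in EpiLC. It was thus low and overlapping in both stem cell states and high in every EpiLC library. Chac1 was 5.24-fold higher in EpiLC than in mESC-2i (log2 2.39, SE 0.11, adjusted p = 2.48e-08) and 5.34-fold higher than in mESC-ser (2.42, SE 0.10, adjusted p = 7.37e-13), the largest rise of the 10 genes in either comparison. It was called in both comparisons under every scaling and also when corrected for length and GC content, at 2.09 and 1.72. Between mESC-ser and mESC-2i the log2 difference was 0.02, with a 95% interval from -0.25 to 0.28, and its sign turned under upper-quartile and total-count scaling (-0.02 and -0.03).

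Sesn2 encodes a leucine sensor that holds back the growth kinase mTORC1 when amino acids are short (chromosome 4, 132492032 to 132510501, minus strand). The counts were high, 1257 to 3003 a library. Levels were 179, 193 and 186 CPM in mESC-2i, 149, 138 and 172 in mESC-ser, with 169, 178 and 182 in EpiLC. No comparison passed the fold threshold. The log2 differences were -0.34 in mESC-ser against mESC-2i (95% interval -0.54 to -0.13), -0.10 in EpiLC against mESC-2i (-0.26 to 0.07) and 0.29 in EpiLC against mESC-ser (0.11 to 0.46). Under total-count scaling they were -0.38, -0.44 and -0.05, the second outside its interval, and none was called. Each interval lay within 0.54 of 0 and takes the TMM scaling as given. A change of the size seen in Atf4 between mESC-ser and mESC-2i (-0.87) was outside these intervals and larger than each total-count value.

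The biosynthetic enzymes gave the largest fall. Asns, asparagine synthetase, makes asparagine from aspartate and glutamine (chromosome 6, 7675169 to 7693254, minus strand). It had 852, 892.5 and 763 CPM in mESC-2i, 227, 236.5 and 221 in mESC-ser, with 251, 244.5 and 248 in EpiLC. The lowest mESC-2i library stood far above the highest of the other states. Asns was 3.81-fold lower in mESC-ser (log2 -1.93, SE 0.11, adjusted p = 1.89e-07) and 3.42-fold lower in EpiLC (-1.77, SE 0.10, adjusted p = 7.87e-08) than in mESC-2i, and in each of these it was the gene of the 10 with the largest fall. Corrected for length and GC content, the values were -1.73 and -1.59. EpiLC and mESC-ser differed by 0.21 (95% interval 0.06 to 0.35), short of the fold threshold and at -0.13 under total-count scaling.

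Phgdh and Psat1 encode the first 2 enzymes of serine synthesis from the glycolytic intermediate 3-phosphoglycerate. Both were called lower in mESC-ser than in mESC-2i, as Asns was, but neither followed Asns to a lower level in EpiLC. Psat1 (chromosome 19, 15904678 to 15947337, minus strand) had 422, 452 and 373 CPM in mESC-2i, 270.4, 282.5 and 189 in mESC-ser, with 568, 577 and 537 in EpiLC. It was 1.75-fold lower in mESC-ser than in mESC-2i (log2 -0.81, SE 0.15, adjusted p = 0.00094) and 2.41-fold higher in EpiLC than in mESC-ser (1.27, SE 0.12, adjusted p = 3.79e-08). Although the EpiLC libraries lay above those of mESC-2i in TMM-scaled CPM, the difference of 0.41 (SE 0.10, adjusted p = 0.00309) stayed under the fold threshold. It was 0.51 without replicate 2 of mESC-2i and 0.81 after the length and GC correction, and was called in both. Under total-count scaling it was 0.07 and not called, and the EpiLC and mESC-2i libraries overlapped.

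Phgdh (chromosome 3, 98313170 to 98339990, minus strand) had 63.9, 80.6 and 54.9 CPM in mESC-2i, 50.4, 50.1 and 36.7 in mESC-ser, with 146, 157 and 134 in EpiLC. The EpiLC libraries were the highest, and those of mESC-2i and mESC-ser lay close together without overlap. Phgdh was 2.17-fold higher in EpiLC than in mESC-2i (log2 1.12, SE 0.13, adjusted p = 2.1e-05) and 3.39-fold higher than in mESC-ser (1.76, SE 0.11, adjusted p = 2.95e-10). Its lower level in mESC-ser than in mESC-2i, -0.60 (SE 0.16, adjusted p = 0.0084), was less firm, since the value was -0.45 without replicate 2 of mESC-2i, -0.45 without replicate 3 of mESC-ser and -0.28 after the length and GC correction, and was called in none of these. A pseudogene, Phgdh-ps1, is annotated, and reads that match both cannot be assigned with certainty.

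Slc7a11 encodes the light chain of the cystine and glutamate exchanger, which supplies cysteine for glutathione (chromosome 3, 49892526 to 50443614, minus strand). It was close to the limit of detection, with 12 to 29 counts in any library. The levels were 1.596, 1.33 and 2.03 CPM in mESC-2i, 0.840, 1.44 and 0.976 in mESC-ser, with 3.89, 2.28 and 3.52 in EpiLC. The EpiLC libraries lay above the rest, but narrowly, with 2.28 CPM in the lowest against 2.03 in the highest mESC-2i library. Scaled by total counts these 2 libraries had 1.97 and 2.26 CPM, so the states overlapped. Slc7a11 was 1.89-fold higher in EpiLC than in mESC-2i (log2 0.92, SE 0.29, adjusted p = 0.0133) and 3.16-fold higher than in mESC-ser (1.66, SE 0.29, adjusted p = 4.86e-05). The first was not called without replicate 1 of EpiLC (0.78) or under total-count scaling (0.58). The difference of mESC-ser from mESC-2i was -0.69 (SE 0.31, adjusted p = 0.0689), called without replicate 2 of mESC-2i (-0.86) and after the length and GC correction (-1.40).

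The correction takes out any trend of counts with exonic length and GC content in each library. The 10 genes had a median exonic length of 2422 bases, against 3863 to 3892 over the genes tested, but the exons of Slc7a11 span 13922 bases. After it, 7 genes were called lower in mESC-ser than in mESC-2i, with a median of -0.59. Among these, Slc7a11 (-1.40) had taken the place of Phgdh (-0.28), and Atf4 moved from -0.87 to -0.51, just over the threshold. In EpiLC against mESC-ser the same 7 genes as before were called higher, with a median of 1.07. In that comparison, where all tested genes had a median of 0.15 and 56.0% of their calls were higher, Atf5 became a lower call. The log2 fold change of Atf4 in EpiLC against mESC-ser moved from 1.19 to 0.73 and that of Slc7a11 from 1.66 to 3.20.

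**Figure D3:**
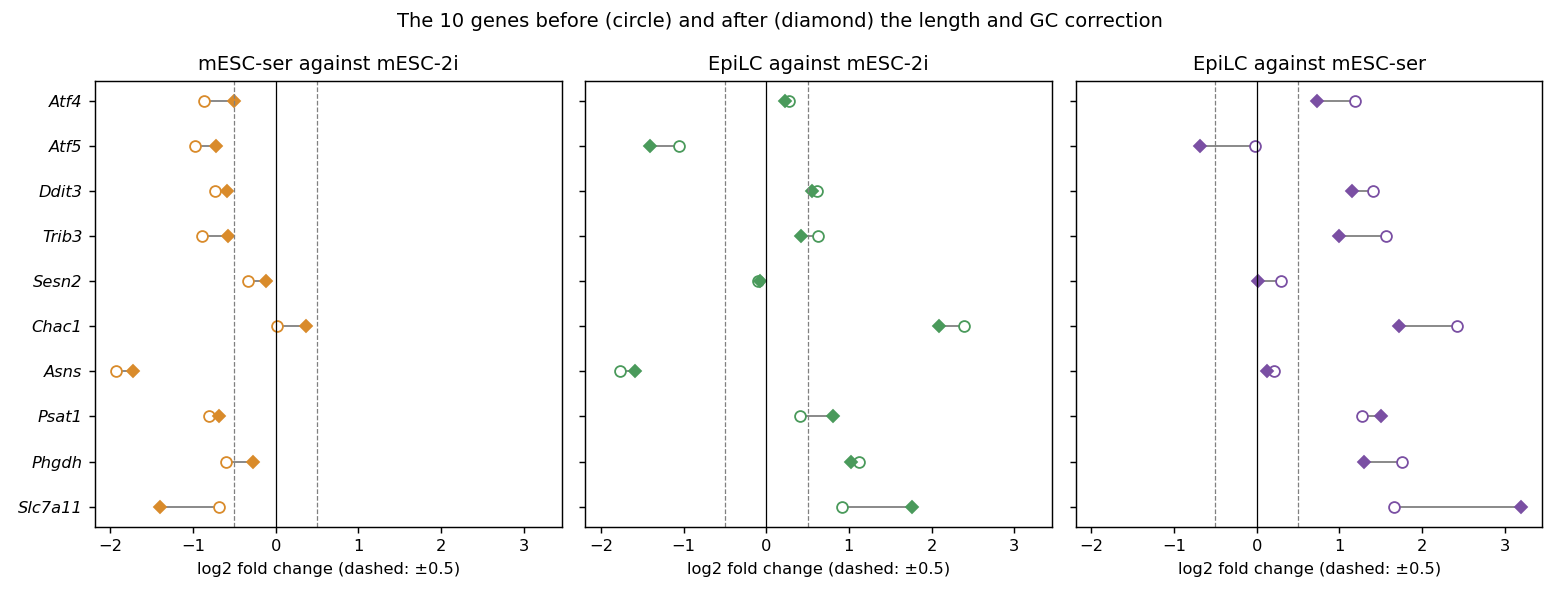
Log2 fold change of the 10 genes before (circles) and after (diamonds) the correction for exonic length and GC content, by comparison, with dashed lines at 0.5. Slc7a11, the gene with 13922 exonic bases, moves away from 0 in each panel, and in EpiLC against mESC-ser the shorter Atf4, Trib3, Chac1 and Phgdh move towards 0.

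Levels of different genes can be compared only per length, as RPKM. In mESC-2i, Asns had the highest level of the 10, with 305.6 ± 24.3 RPKM (SD, n = 3), followed by Atf4 with 167 ± 13.6 and Psat1 with 97.8 ± 9.38. In mESC-ser, Atf4 (95.3 ± 5.79 RPKM) was first and Asns (83.4 ± 2.90) second. In EpiLC, Atf4 had 204.6 ± 11.9 RPKM, Psat1 132 ± 4.88, Asns 90.6 ± 1.145 and Phgdh 58.6 ± 4.52. The top place thus passed from Asns in mESC-2i to Atf4 in the other states, and the libraries of first and second gene did not overlap in any state. Slc7a11 was last in all 3, at 0.119, 0.0780 and 0.232 RPKM. Neighbours whose libraries overlapped were Atf5 and Phgdh in mESC-2i and mESC-ser, Phgdh and Trib3 as well as Chac1 and Ddit3 in mESC-2i, and Psat1 and Sesn2 in mESC-ser. In EpiLC no neighbours overlapped.

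Setting each gene against Atf4 in the same library removes the library scaling. The log2 ratio of Asns to Atf4 RPKM was 0.87 in all 3 mESC-2i libraries, -0.28 to -0.14 in mESC-ser and -1.24 to -1.06 in EpiLC. Asns therefore ran from above to well below Atf4 across the states, in ranges that did not overlap. Chac1 went the other way, from -4.51 to -4.45 in mESC-2i through -3.72 to -3.39 in mESC-ser to -2.40 to -2.32 in EpiLC. Psat1 stayed near the same distance from Atf4, with means of -0.77 ± 0.0233 (SD, n = 3), -0.73 ± 0.243 and -0.63 ± 0.122, and Ddit3 did so within its spread, with -4.73 ± 0.27, -4.60 ± 0.14 and -4.39 ± 0.107. Trib3 had -3.14 to -2.99 in mESC-2i, -3.24 to -3.00 in mESC-ser and -2.91 to -2.61 in EpiLC. Sesn2, which changed least in level, was nearest to Atf4 in mESC-ser (-1.27 to -0.85) and furthest in EpiLC (-2.03 to -1.98). With 3 libraries a state these ratios are given as a description, without a test.

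**Figure D4:**
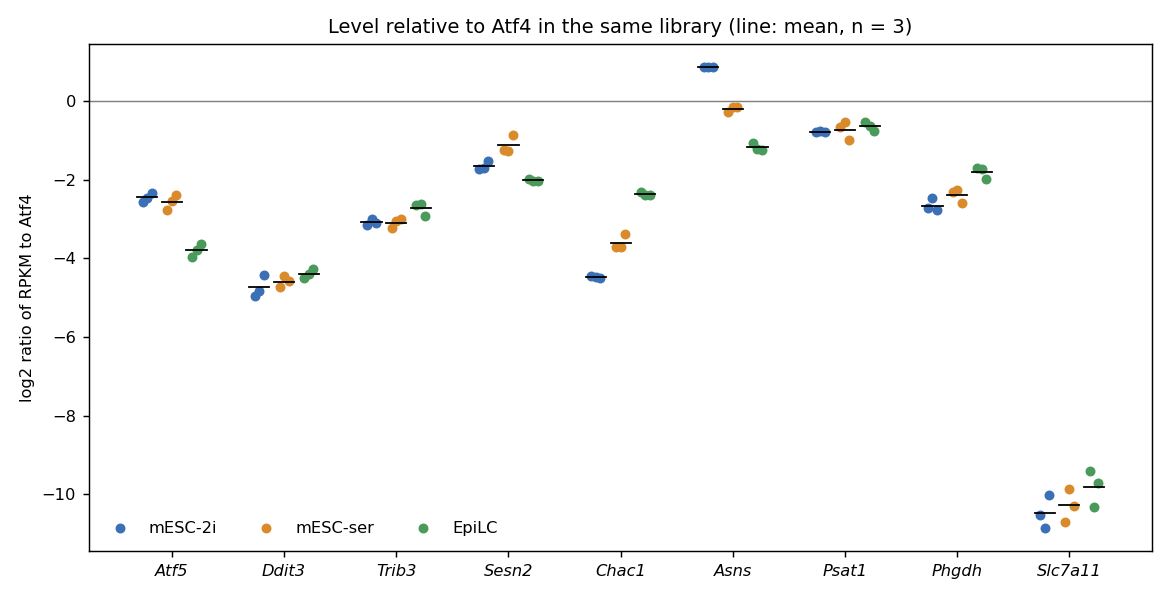
Log2 ratio of the RPKM of each gene to that of Atf4 in the same library, for the 9 libraries, with the mean of each state as a line. Asns falls from 0.87 to -1.17 in mean from mESC-2i to EpiLC and Chac1 climbs from -4.48 to -2.37, while Psat1 stays between -0.77 and -0.63.

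The likeness of 2 profiles was measured as the root mean square difference of log2 CPM, each centred on its own mean, over the 9 libraries. Among the 10 genes, Atf4 and Psat1 were the closest pair (0.141), followed by Trib3 and Psat1 (0.195) and Atf4 and Trib3 (0.199), and Chac1 and Asns were the furthest apart (1.69). Atf4, Trib3, Ddit3 and Psat1 lay within 0.224 of each other, whereas Asns lay at least 0.427 from every other gene, nearest to Atf5. Over 10545 genes with a symbol and a mean of at least 5 CPM, those most like Atf4 were Myl12b (0.058), Fam50a (0.067) and Atp6v0c (0.073). For Trib3 they were Pop5 (0.074), Gde1 (0.086) and Ftl2-ps (0.086), and for Phgdh Rpl15 (0.053), Tbca (0.066) and Rpl7 (0.071). Each of these genes was closer to its partner than any of the 10 genes was. They were picked as the nearest of 10545 genes, so closer profiles were bound to turn up. No conclusion about the 10 genes is drawn from this.

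Upstream of ATF4 are the eIF2α kinases HRI (Eif2ak1), PKR (Eif2ak2), PERK (Eif2ak3) and GCN2 (Eif2ak4), eIF2α itself (Eif2s1), and the phosphatase subunits encoded by Ppp1r15a and Ppp1r15b. Eif2ak3 was at 25.4, 26.2 and 24.9 CPM in mESC-2i, 41.2, 42.3 and 47.8 in mESC-ser, with 5.64, 7.49 and 8.92 in EpiLC. It was 1.65-fold higher in mESC-ser than in mESC-2i by edgeR (log2 0.72, SE 0.11, adjusted p = 0.000183) and lower in EpiLC than in either (-1.81, SE 0.16, adjusted p = 2.18e-06, and -2.48, SE 0.14, adjusted p = 3.41e-11). In each comparison this kinase mRNA and Atf4 differed in opposite directions, though in EpiLC against mESC-2i Atf4 was not called and turned to -0.07 under total-count scaling.

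Eif2ak1 was also higher in mESC-ser than in mESC-2i (0.69, SE 0.10), and lower in EpiLC than in mESC-ser (-0.81, SE 0.09, but -0.35 and not called after the correction), and its value in EpiLC against mESC-2i was -0.17 (SE 0.10, not called). Eif2ak2 was lower in EpiLC than in mESC-2i (-2.05, SE 0.18) and mESC-ser (-2.07, SE 0.13). Eif2ak4 was lower in EpiLC by -0.78 (SE 0.13) and -0.60 (SE 0.11), values that became -0.11 and 0.10 after the length and GC correction, where neither was called. Eif2s1 rose in EpiLC, by 1.23 (SE 0.11) against mESC-2i and 0.80 (SE 0.13) against mESC-ser, the second at 0.46 and not called under total-count scaling. The phosphatase subunits were called in no comparison, with values from -0.48 to -0.11 for Ppp1r15a and from -0.42 to 0.03 for Ppp1r15b, though total-count scaling called both lower in EpiLC than in mESC-2i (-0.82 and -0.76) and Ppp1r15b lower than in mESC-ser (-0.74). Of these 7 genes, 2 were higher and none lower in the first comparison, 1 higher and 3 lower in the second, and 1 higher and 4 lower in the third. Phosphorylation of eIF2α was not measured.

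Of 14 other ATF4 targets, 11 were lower in mESC-ser than in mESC-2i and 1 was higher, with a median of -0.94. Against the 30.3% of all genes called lower, this list and the 10 genes both leaned the same way. Both were chosen with earlier results of these data known, so the list is not independent support for the 10 genes. The largest falls were those of Nupr1, a small stress-induced chromatin protein, and Gdf15, a secreted stress hormone. Nupr1 had 61.8, 67.3 and 65.6 CPM in mESC-2i and 6.30, 5.18 and 5.74 in mESC-ser, with a log2 fold change of -3.55 (SE 0.12, adjusted p = 1.55e-08). It was back at 51.0 to 61.3 CPM in EpiLC, 3.39 above mESC-ser (SE 0.12) and not called against mESC-2i (-0.20). Gdf15 fell by 2.94 on the log2 scale (SE 0.20) in mESC-ser. The exception was Cebpb, a partner of ATF4, at 0.53 (SE 0.16, adjusted p = 0.0123), which was not called under upper-quartile scaling (0.50), under total-count scaling (0.49), without replicate 3 of mESC-2i (0.42) or without replicate 3 of mESC-ser (0.49).

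In EpiLC against mESC-ser, 11 of these 14 targets were higher and 1 lower, with a median of 1.32, beside 7 of the 10 genes and 35.5% of all genes. Pck2, the mitochondrial PEP carboxykinase, had 38.1 to 40.7 CPM in mESC-2i, 12.1 to 13.9 in mESC-ser and 89.1 to 102.5 in EpiLC, and rose by 2.96 (SE 0.10) between the last of these. Cth, which makes cysteine from cystathionine, was the gene called lower (-1.16, SE 0.09). Against mESC-2i the EpiLC were mixed, with 4 targets higher (Cebpb 2.13, SE 0.16, and Eif4ebp1 1.33, SE 0.10, among them) and 4 lower, with Jdp2 at -2.67 (SE 0.17) and Cth at -2.09 (SE 0.10). Under total-count scaling the same list had 3 higher and 6 lower, and its median moved from 0.03 to -0.31. Of 12 of the targets with a RefSeq window, 6 held the response element core, namely Atf3, Nupr1, Vldlr, Pck2, Jdp2 and Herpud1.

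The rest of the serine and one-carbon pathway followed the serine enzymes only in part. Psph, the third enzyme of serine synthesis, had 44.3, 49.9 and 36.4 CPM in mESC-2i, 27.4, 31.6 and 19.9 in mESC-ser, with 71.3, 71.9 and 73.8 in EpiLC. It ran in the same order as Psat1 and Phgdh, being lower in mESC-ser (log2 -0.79, SE 0.18, adjusted p = 0.00262) and higher in EpiLC than in mESC-2i (0.71, SE 0.12, adjusted p = 0.000215) and than in mESC-ser (1.56, SE 0.13). The rise over mESC-2i was 0.38 under total-count scaling and not called. Mitochondrial Shmt2, which turns serine into glycine, was 1.23 (SE 0.08) higher in EpiLC than in mESC-ser, and Mthfd2 was 0.90 (SE 0.09) higher than in mESC-2i. Aldh1l2, a mitochondrial folate enzyme, was instead lower in mESC-ser (-1.82, SE 0.22) and in EpiLC (-2.21, SE 0.23) than in mESC-2i. Of the 8 genes of this list, 3 were lower and none higher in mESC-ser against mESC-2i, 2 were higher and 1 lower in EpiLC against mESC-2i, and 3 were higher and none lower in EpiLC against mESC-ser. Its medians were -0.00, 0.12 and 0.11, of which the last 2 were -0.22 and -0.23 under total-count scaling. That scaling gave 1 higher and 1 lower in EpiLC against mESC-2i, and 2 higher and 3 lower in EpiLC against mESC-ser.

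Amino acid transporters were mixed. Slc38a2, which carries small neutral amino acids and is induced by ATF4, was the opposite of Atf4 in the stem cell states, with 131, 117 and 145 CPM in mESC-2i and 495, 478 and 531 in mESC-ser (log2 1.88, SE 0.12, adjusted p = 3.99e-07). In EpiLC it had 371, 333 and 361 CPM, 1.42 (SE 0.11) above mESC-2i. Slc1a5 was lower in mESC-ser than in mESC-2i (-0.82, SE 0.13). The arginine and lysine transporter Slc7a1 was lower in EpiLC than in mESC-2i (-1.77, SE 0.13) and mESC-ser (-1.67, SE 0.09), while the glycine transporter Slc6a9 was higher, by 1.74 (SE 0.23) and 2.35 (SE 0.18). Slc3a2, the heavy chain that pairs with Slc7a11, was 1.17 (SE 0.08) higher in EpiLC than in mESC-ser. In all, 2 of 8 were higher and 1 lower in the first comparison, and 4 higher and 1 lower in each of the others, where total-count scaling gave 3 and 2, and 2 and 2.

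The 12 aminoacyl-tRNA synthetases, of which ATF4 is known to induce several, moved less. In mESC-ser against mESC-2i, 1 was higher and 2 were lower, with Cars at -1.16 (SE 0.09, adjusted p = 2.41e-06). In EpiLC against mESC-2i none was higher and 1, Iars, was lower at -0.64 (SE 0.10), a value that was -0.14 after the length and GC correction. In EpiLC against mESC-ser 4 were higher, with Gars at 0.90 (SE 0.08) and Cars at 0.74 (SE 0.08), and 1 was lower, with Eprs at a fold of 0.501 (log2 SE 0.08). Under total-count scaling Cars was at 0.40 and not called, and after the correction Eprs turned to a log2 value of 0.65. The list medians were -0.18, -0.03 and 0.11, against -0.04, -0.11 and -0.07 over all genes. After the correction 4 synthetases were higher in EpiLC than in mESC-2i and 8 higher than in mESC-ser, with medians of 0.49 and 0.64. The core was found in the windows of 5 of the 8 synthetases with a window (Aars, Gars, Iars, Tars and Yars).

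Other stress programmes were measured beside these genes. Of 16 ER chaperone and unfolded protein genes, 4 rose and 1 fell in mESC-ser from mESC-2i, 6 rose and 3 fell in EpiLC from mESC-2i, and 4 were higher and 6 lower in EpiLC than in mESC-ser. Under total-count scaling the last pair of counts was 2 and 9 and the one before it 2 and 8. The chaperone gene Hspa5 was 0.59 (SE 0.15) higher in mESC-ser and 1.01 (SE 0.11) higher in EpiLC than in mESC-2i, while Sel1l, part of the ER degradation machinery, was lower in EpiLC by -1.05 (SE 0.10) and -1.29 (SE 0.09), each -0.36 and not called after the correction. Xbp1 was 0.61 (SE 0.10) higher in mESC-ser than in mESC-2i. In mESC-ser against mESC-2i, the share of ER genes called higher was near the 25.9% of all genes. The list median was 0.34, against -0.04 over all genes. The ER gene called lower there was Sdf2l1 (-0.69, SE 0.19).

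Of 10 genes of the NRF2 antioxidant response, 3 were higher and 4 lower in mESC-ser, with Gclm at 1.19 (SE 0.10) and Nqo1 at -1.41 (SE 0.18). In EpiLC against mESC-2i 4 were higher and 4 lower, with Gclm at 1.41 (SE 0.11) and Nfe2l2, which encodes NRF2, at -1.20 (SE 0.11). Slc7a11, a target of both programmes, rose in EpiLC as Gclm did, and Gclc, the catalytic partner of Gclm, fell (-0.96, SE 0.13). In EpiLC against mESC-ser 2 were higher and 1 lower. Of 5 mitochondrial chaperone and protease genes, Hspe1 was 2.27 (SE 0.13) higher in EpiLC than in mESC-2i and 2.59 (SE 0.12) higher than in mESC-ser, and Clpp 1.66 (SE 0.10) and 1.71 (SE 0.08). Hspd1, the partner of Hspe1, was 1.14 (SE 0.10) higher in mESC-ser than in mESC-2i and 0.55 lower in EpiLC than in mESC-ser (log2 -0.55, SE 0.07). None of the windows of the ER, NRF2 and mitochondrial lists held the response element core, in 14, 7 and 4 genes.

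**Figure D5:**
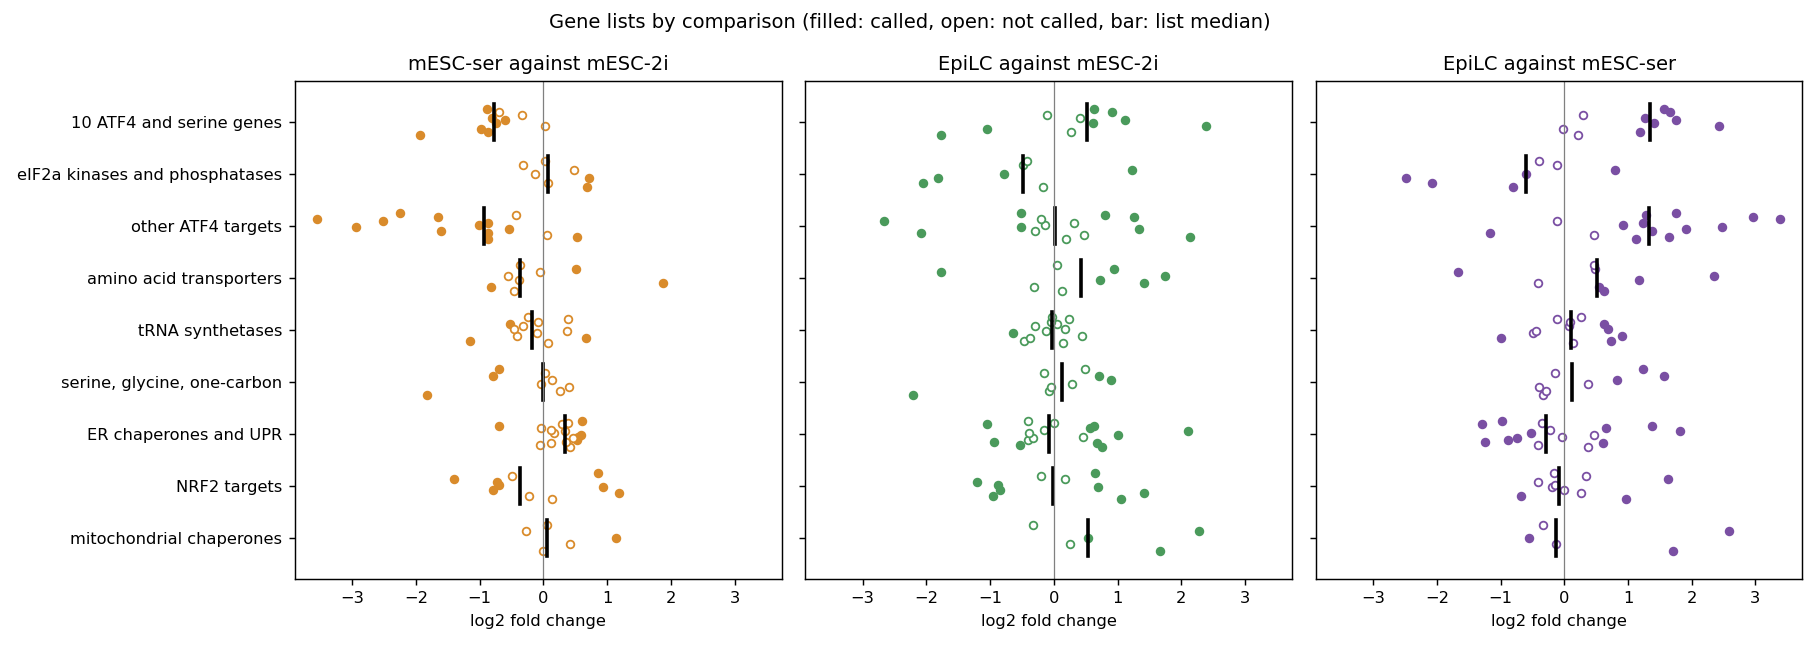
Log2 fold change of every gene of the 10 genes and of the 8 other lists, by comparison, with filled points for called genes and a bar at the median of a list. The other ATF4 targets lean to the left in mESC-ser against mESC-2i (median -0.94) and to the right in EpiLC against mESC-ser (1.32), as the 10 genes do (-0.78 and 1.34), whereas the tRNA synthetases gather near 0.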

How the data were processed

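Per the study's methods and the submitters' processing notes, the authors trimmed 50-base single-end reads of poly-A RNA (TruSeq v2) with Trim Galore 0.6.6, aligned them to mm10 with HISAT2 2.2.1 and counted them per gene with featureCounts of Subread 2.0.1. The deposited values are raw counts per Ensembl gene. The annotation release and the handling of multiply aligned reads are not given in the sources used here. Columns were matched to samples by name. GENCODE M21 gave symbols, exonic lengths and positions for 36429 of 38293 genes (95.1%).

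Each comparison used the 6 libraries of its states in edgeR 4.0.16 (R 4.3.3, limma 3.58.1), with filterByExpr, TMM scaling and the quasi-likelihood F-test, adjusted by Benjamini-Hochberg over all tested genes. SEs were taken from the F statistic. CPM and RPKM used TMM over 9 libraries. The length and GC correction fitted a natural spline (5 degrees of freedom) to each in every library. The steps were tested on simulated data. DESeq2 1.42.0, other scalings, filters and thresholds were alternatives.

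The 10 genes and the lists were chosen with earlier results of these data known. Besides the 10 and the eIF2α genes, at most the 2 largest called rises and falls per list and comparison, at a mean of 100 counts or more in the higher state, are named. For Atf4, Trib3 and Phgdh the 3 nearest profiles are named. A few values of such genes in other comparisons are given beside these.

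Replicates are labelled biological, without saying whether cultures were separate, so p-values measure the spread between these libraries. Chi-square values per degree of freedom between replicates were 1.66 to 30.5, more spread than counting error alone gives. They cannot tell separate cultures from separate libraries of the same RNA. Deviations from the state mean correlated at r 0.129 to 0.345 over genes between same-numbered libraries of mESC-2i and mESC-ser. Differently numbered ones gave -0.278 to 0.146. For mESC-2i and EpiLC the 2 ranges were 0.020 to 0.112 and -0.114 to 0.011. For mESC-ser and EpiLC they were 0.016 to 0.033 and -0.031 to 0.016. These values do not settle whether the numbers pair the libraries.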

Additional observations from a re-analysis of the deposited data

How the results depend on the processing

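The counts of called genes among the 10 held within 1.5 times under most alternatives. At a log2 fold change over 1, 1 gene was called in mESC-ser against mESC-2i, lower (Asns), and 4 in EpiLC against mESC-2i, 2 of them higher. Of all genes, that threshold called 4935 of 15728 in mESC-ser against mESC-2i, 2713 of them lower. In EpiLC against mESC-2i it called 7455 of 15378. The share of the 10 genes called was thus below that of all genes in both, as was the share called lower in mESC-ser. Under total-count scaling 4 were called in EpiLC against mESC-2i, 2 of them higher. After the length and GC correction 1 was called lower in EpiLC against mESC-ser. Of the 80 pathway genes, 36, 41 and 46 were called in the 3 comparisons, smaller shares than the 56.2%, 69.8% and 73.3% of all tested genes. At a log2 fold change over 1 the counts were 13, 20 and 25. These too were smaller shares than over all genes, where 7957 of 15345 were called in EpiLC against mESC-ser. The adjusted p alone gave 56 in the first, beside 10430 of all 15728 genes. Leaving out a library gave 6 to 7, 6 to 8 and 7 called among the 10 genes, and 34 to 38, 40 to 42 and 46 to 50 among the pathway genes. With the replicate block 7 of the 10 genes were called in each comparison, and no call among them changed.

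Some directions turned. In mESC-ser against mESC-2i, Chac1 (0.02) was -0.02 under upper-quartile and -0.03 under total-count scaling, and -0.06 and -0.04 without replicate 3 of mESC-2i or of mESC-ser (range with a library left out -0.06 to 0.10). There Ppp1r15b was -0.01 and -0.02 under those scalings, Eif2ak2 -0.05 after the length and GC correction and from -0.06 to 0.23 with a library left out, and Ppp1r15a 0.01 and Eprs -0.07 after the correction. In EpiLC against mESC-2i, Atf4 was -0.07 under total-count scaling, and Eif2ak1 was 0.36 and Ppp1r15b 0.11 after the correction. In EpiLC against mESC-ser, Atf5 was 0.00 with RLE scaling and DESeq2, 0.03 without replicate 3 of mESC-ser and 0.10 without replicate 1 of EpiLC (range -0.13 to 0.10). Total-count scaling gave -0.05 for Sesn2 and -0.13 for Asns, and the correction 0.10 for Eif2ak4, 0.07 for Ppp1r15b and 0.65 for Eprs. The causes were not tested. Depth limited Slc7a11 most, with 12 to 29 counts a library, and intervals cover counting error and spread of 3 libraries a state only.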
